A study of Mus musculus with 6 samples.

Results

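The Serpina3 cluster of mouse chromosome 12 was examined in macrophages with and without macrophage scavenger receptor 1 (MSR1). Of its genes, the 6 named Serpina3f, Serpina3g, Serpina3h, Serpina3i, Serpina3m and Serpina3n were taken by symbol from the 52550 genes of the deposited count table. Serpina3f was picked because it was among the largest rises between the genotypes, so its values in that comparison are a description and carry no test. The other 5 were taken as its neighbours and paralogues, and the question was whether they moved with it. Bone marrow of MSR1 KO or MSR1 WT mice, both on a C57BL/6 background, was grown in M-CSF (25 ng/ml, 7 days), and the resulting bone marrow-derived macrophages (BMDMs) shared a Transwell with bone marrow stem cells (BMSCs) for 48 h. RNA was sequenced from 3 MSR1 KO and 3 MSR1 WT cultures, described as biological replicates; the number of mice, their age and sex were not given in the sources used here, and no culture without BMSCs was analysed here. If the cultures of a genotype came from the same animal, the p-values measure only the spread between cultures. The genotype was that of the donor mice, so it held during the growth of the BMDMs as well as during co-culture. Library values are given in the order of replicates 1, 2 and 3, and levels in CPM are counts scaled to library size with the TMM method.

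Serpins are protease inhibitors that offer an exposed reactive centre loop as bait. When a protease cuts the loop, the serpin changes shape and traps the enzyme, so the loop helps to set which proteases a serpin can trap. Humans carry a single SERPINA3 gene, which encodes the acute-phase protein α1-antichymotrypsin, whereas mice carry a run of Serpina3 copies. Among them, Serpina3g (also called Spi2A) encodes an intracellular inhibitor of cathepsins that is known from activated macrophages and lymphocytes, and Serpina3n encodes a secreted acute-phase inhibitor of granzyme B and leukocyte elastase.

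The stretch that encodes the loop is shown for all 6 genes because the copies differ there in the letters that meet a protease. It was read 5′ to 3′ from the GENCODE transcripts of GRCm38. The 27 bases of the hinge and the 15 bases at the end are in lower case, and the variable part of the loop is in capitals.
Serpina3f: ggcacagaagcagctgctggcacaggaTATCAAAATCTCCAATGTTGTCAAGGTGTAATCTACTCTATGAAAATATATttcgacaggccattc
Serpina3g: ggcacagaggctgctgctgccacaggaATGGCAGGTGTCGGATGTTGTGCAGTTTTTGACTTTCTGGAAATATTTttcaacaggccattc
Serpina3h: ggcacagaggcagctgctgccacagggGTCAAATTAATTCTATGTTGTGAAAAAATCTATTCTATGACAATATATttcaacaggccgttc
Serpina3i: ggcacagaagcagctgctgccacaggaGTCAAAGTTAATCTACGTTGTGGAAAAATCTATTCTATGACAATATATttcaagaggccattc
Serpina3m: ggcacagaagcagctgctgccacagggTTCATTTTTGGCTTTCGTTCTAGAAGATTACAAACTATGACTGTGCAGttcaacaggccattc
Serpina3n: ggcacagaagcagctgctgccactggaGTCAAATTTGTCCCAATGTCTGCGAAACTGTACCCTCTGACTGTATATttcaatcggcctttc
At the hinge, any 2 of the genes were identical at 24 to 26 of 27 bases. In the variable part, Serpina3f and Serpina3g were identical at 28 of 48 aligned bases (58.3%), against 87.4% over the 744 aligned bases of their reading frames. Serpina3f was closest to Serpina3i, with 92% over 1220 aligned bases of the frame and 84.1% in the loop. Serpina3h and Serpina3i shared 89.6% of their loop bases, and Serpina3g and Serpina3m shared 48.9%. Serpina3h is annotated as a transcribed pseudogene. Its open frame around the loop had 648 bases, against 744 for Serpina3g and 1224 to 1335 for Serpina3f, Serpina3i, Serpina3m and Serpina3n.

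Close copies can exchange or lose reads when these are aligned. Of all windows of 100 bases in the transcripts of each gene, 3.4% for Serpina3f, 3.49% for Serpina3g, 3.6% for Serpina3h, 2.25% for Serpina3i, 6.09% for Serpina3m and 0.204% for Serpina3n also occurred letter for letter in a transcript of another gene. The shared windows of Serpina3f and Serpina3g lay in each other, in Serpina3h, in Serpina3i and in the pseudogene Serpina3e-ps, those of Serpina3n lay in Serpina3e-ps and Serpina3g, and those of Serpina3m lay in Serpina3k, with which it also shares 60 of its 1719 exon bases. The counts of Serpina3h, Serpina3i and Serpina3m, which are low, are therefore uncertain.

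Serpina3f (ENSMUSG00000066363.12, chromosome 12 from 104214544 to 104221129 on GRCm38) was counted 319, 732 and 94 times in MSR1 KO and 32, 15 and 29 times in MSR1 WT cultures. Scaled to library size, these were 8.88, 18.4 and 2.02 CPM against 0.776, 0.316 and 0.702 CPM. Every MSR1 KO library lay above every MSR1 WT library, but MSR1 KO replicate 3 was much nearer to the MSR1 WT level than the other two. The means were 9.76 ± 8.22 CPM (SD, n = 3) and 0.598 ± 0.247 CPM (SD, n = 3), and the log2 fold change was 4.03 (standard error 0.77), which is a description because the gene was chosen on it. In bulk libraries, more cells that express a gene and more RNA per cell cannot be told apart. The highest MSR1 KO value was 9.09 times the lowest. Among 13598 genes that averaged 1 CPM or more and had no 0 in the MSR1 KO group, 0.257% had a wider range there, and the median range was 1.22 times. Without MSR1 KO replicate 2 the log2 fold change of Serpina3f was 3.19, and without MSR1 KO replicate 3 it was 4.53, the ends of the range over single libraries left out.

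Serpina3g (ENSMUSG00000041481.16, chromosome 12 from 104236245 to 104241939), which starts 15.1 kb beyond the end of Serpina3f, was the only paralogue with a substantial count. Its counts were 910, 1548 and 698 in MSR1 KO against 338, 220 and 519 in MSR1 WT cultures, or 25.3, 38.9 and 15.02 CPM against 8.20, 4.64 and 12.6 CPM. The groups did not overlap, although the lowest MSR1 KO value was only 1.20 times the highest MSR1 WT value; every MSR1 KO library lay above every MSR1 WT library for 12.1% of the 16402 genes tested. The mean was 26.4 ± 11.97 CPM with MSR1 knocked out, against 8.47 ± 3.97 CPM without (SD, n = 3 each), a 3.12-fold difference. Its log2 fold change was 1.64 (standard error 0.41), with an unadjusted p = 0.00384 and, after Benjamini-Hochberg adjustment across the tested genes, an adjusted p = 0.0639 in edgeR's quasi-likelihood test. The study calls a gene a DEG at a fold change above 1.5 with an unadjusted p under 0.05, and Serpina3g met this, as did 3.59% of tested genes in this direction. It did not pass at an adjusted p under 0.05 in edgeR, which 2.25% of tested genes did as higher and 2.66% as lower, and it did in DESeq2's Wald test (adjusted p = 0.0291). Without MSR1 WT replicate 3, its log2 fold change was 2.04 (adjusted p = 0.0419 from edgeR), and with the other libraries left out in turn it was lower, down to 1.25 without MSR1 KO replicate 2, with adjusted p-values from edgeR of up to 0.204.

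The remaining 4 genes had almost no reads in either genotype, and none had enough counts to be tested. Serpina3n (ENSMUSG00000021091.8, chromosome 12 from 104406729 to 104414329) was counted 8, 6 and 6 times in MSR1 KO and 6, 23 and 8 times in MSR1 WT cultures. The groups overlapped, and MSR1 WT replicate 2 stood above the other 5 libraries. Its means were 0.168 ± 0.0490 and 0.275 ± 0.184 CPM (SD, n = 3 each), and a fit of all 25014 genes with a count gave -0.72 ± 0.78 (log2 fold change and SE, edgeR adjusted p = 0.701). Serpina3h (ENSMUSG00000041449.16, chromosome 12 from 104247905 to 104253669) was at 0 in each MSR1 KO library and at 0, 6 and 11 counts in MSR1 WT, so the groups met at 0. Serpina3i (ENSMUSG00000079014.4, chromosome 12 from 104263122 to 104269372) and Serpina3m (ENSMUSG00000079012.11, chromosome 12 from 104338486 to 104394257) each had 6 counts in MSR1 WT replicate 2 and 0 in the other 5 libraries. The limit that 0 counts set is 3 counts. By total counts alone, without TMM scaling, this is 0.083, 0.0747 and 0.0633 CPM for MSR1 KO replicates 1 to 3. At this depth a lower level of Serpina3h, Serpina3i or Serpina3m in MSR1 KO can be seen only against the few counts of MSR1 WT. In the fit of all genes with a count, Serpina3h was lower in MSR1 KO, opposite to Serpina3f and Serpina3g, with an unadjusted p = 0.048 and an adjusted p = 0.37 from edgeR, and Serpina3i and Serpina3m each had an adjusted p = 0.524.

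**Figure D1:**
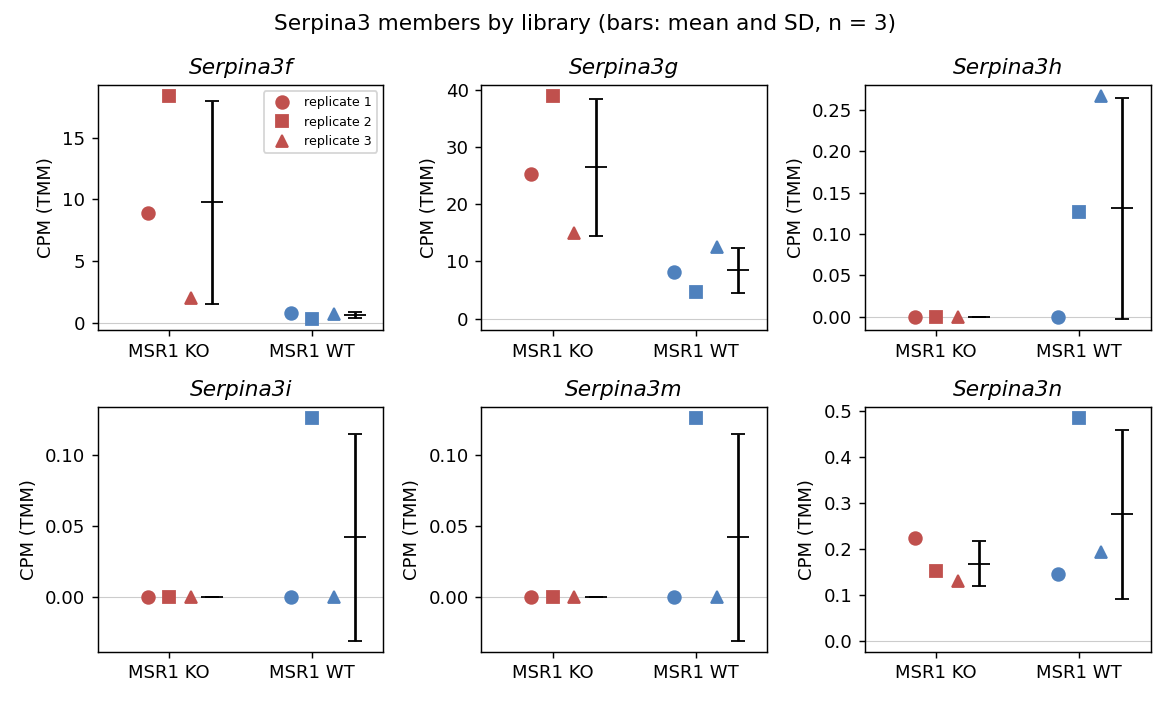
Level of each Serpina3 gene in CPM scaled by TMM (linear y axis, a different range in each panel) in the 3 MSR1 KO libraries (red) and the 3 MSR1 WT libraries (blue), with the mean and SD as black bars. Serpina3f and Serpina3g lie higher in every MSR1 KO library, with replicate 2 at the top at 18.4 and 38.9 CPM, whereas Serpina3h, Serpina3i, Serpina3m and Serpina3n stay below 0.5 CPM and overlap between the genotypes.

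Serpina3f and Serpina3g together supplied 98.4% or more of the counts of the 6 genes in 4 of the 6 libraries, and 85.1% and 96.7% in MSR1 WT replicates 2 and 3. The 6 genes summed to 1237, 2286 and 798 counts in MSR1 KO and to 376, 276 and 567 in MSR1 WT cultures. Refitted as 1 gene, so that an exchange of reads among these copies cannot change it, the sum gave a log2 fold change of 1.93 (SE 0.44), given without a test because it contains Serpina3f.

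Per length of exon, Serpina3g stood above Serpina3f in every library. Its level was 12.5 ± 5.69 CPM per kb in MSR1 KO and 4.02 ± 1.89 CPM per kb in MSR1 WT libraries (SD, n = 3 each), against 4.26 ± 3.59 and 0.261 ± 0.108 CPM per kb for Serpina3f. The share of Serpina3f in the counts of the pair is a description, since its choice as a large rise favours a higher share in MSR1 KO. Serpina3f made up 26% (95% Wilson interval 23.6 to 28.5), 32.1% (30.2 to 34.1) and 11.9% (9.8 to 14.3) of these counts in the MSR1 KO libraries, and 8.65% (6.19 to 12), 6.38% (3.91 to 10.3) and 5.29% (3.71 to 7.5) in the MSR1 WT libraries. These intervals cover counting error only. Serpina3n reached 0.0812 ± 0.0237 CPM per kb in MSR1 KO and 0.133 ± 0.0889 CPM per kb in MSR1 WT libraries, below Serpina3f in each of the 3 MSR1 KO libraries and in 2 of the 3 MSR1 WT libraries.

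Within the MSR1 KO group both genes ordered the libraries alike. Serpina3f and Serpina3g were highest in MSR1 KO replicate 2, intermediate in replicate 1 and lowest in replicate 3. This order, which was noticed in these libraries, held for 18% of all tested genes. In the MSR1 WT libraries the genes had replicate 2 as the lowest in common, but Serpina3f was highest in replicate 1 and Serpina3g in replicate 3.

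The 8 other genes of the table whose names begin with Serpina3 add no further expressed copy. Serpina3a, Serpina3b, Serpina3c, Serpina3e-ps, Serpina3j and Serpina3l-ps had 0 counts in all 6 libraries. Serpina3d-ps had 4 counts in MSR1 KO replicate 2 and Serpina3k, which encodes a liver serpin that binds kallikrein, had 4 counts in MSR1 KO replicate 3, with 0 in the other libraries. Of the 14 other Serpina genes on chromosome 12, which include the α1-antitrypsin copies, a single gene (Serpina1b, 4 counts in MSR1 KO replicate 2) had any read. Of the 28 Serpina genes of chromosome 12 in the table, Serpina3f and Serpina3g were thus the 2 that were tested, and Serpina3d-ps, Serpina3h, Serpina3i, Serpina3k, Serpina3m, Serpina3n and Serpina1b had 4 to 23 counts in their highest library.

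**Figure D2:**
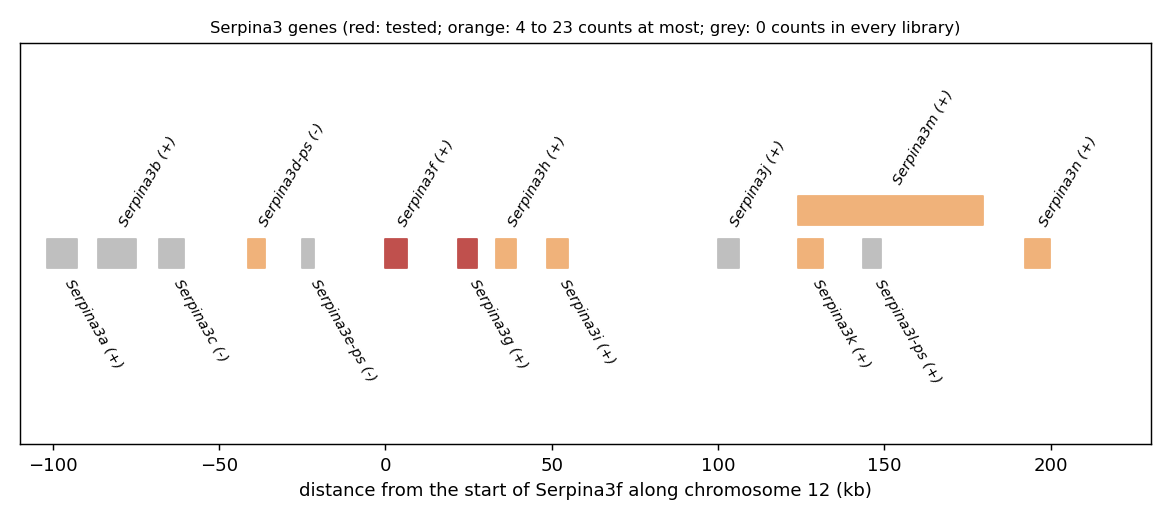
Map of the 14 Serpina3 genes along chromosome 12 with the distance from the start of Serpina3f in kb on the x axis and the strand in brackets; Serpina3m is drawn above because it overlaps Serpina3k and Serpina3l-ps. The 2 tested genes (red) are adjacent members of the row. Genes with 4 to 23 counts in their highest library (orange) include Serpina3h next to Serpina3g and others further along. Serpina3e-ps, next to Serpina3f on its other side, is among the 6 genes with 0 counts in every library (grey).

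Around the cluster, which spans 301.6 kb from Serpina3a to Serpina3n, 13 genes outside the family were tested within 1 Mb on either side. Their median log2 fold change was 0.15, and 2 were higher DEGs and 0 were lower DEGs (3.59% and 5.05% over all tested genes). These were Asb2, a subunit of a ubiquitin ligase, at a log2 fold change of 0.96 (edgeR adjusted p = 0.0555), and Ifi27l2a, an interferon-inducible gene, with 0.88 (adjusted p = 0.0483 from edgeR); both were named after their values were seen. Dicer1, the first tested gene beyond Serpina3n, stood at a log2 fold change of -0.08 (edgeR adjusted p = 0.687).

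The region upstream of each start site is shown for the 2 tested genes and for Serpina3n as the abundant family member of other tissues that stayed near 0 here. The sequences are the 250 bases before the RefSeq start sites, all on the plus strand of GRCm38.p6, at chr12:104214294-104214543 for Serpina3f, chr12:104235897-104236146 for Serpina3g and chr12:104406458-104406707 for Serpina3n. Capitals mark matches to any of the motifs searched.
Serpina3f: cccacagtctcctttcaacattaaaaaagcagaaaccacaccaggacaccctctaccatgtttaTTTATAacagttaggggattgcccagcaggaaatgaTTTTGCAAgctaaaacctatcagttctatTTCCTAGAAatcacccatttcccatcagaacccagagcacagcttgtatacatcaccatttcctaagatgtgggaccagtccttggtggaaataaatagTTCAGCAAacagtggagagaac
Serpina3g: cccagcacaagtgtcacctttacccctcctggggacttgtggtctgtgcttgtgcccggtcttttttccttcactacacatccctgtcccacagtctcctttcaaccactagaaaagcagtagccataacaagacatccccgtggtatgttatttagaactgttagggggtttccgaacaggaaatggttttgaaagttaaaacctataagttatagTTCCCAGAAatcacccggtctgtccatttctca
Serpina3n: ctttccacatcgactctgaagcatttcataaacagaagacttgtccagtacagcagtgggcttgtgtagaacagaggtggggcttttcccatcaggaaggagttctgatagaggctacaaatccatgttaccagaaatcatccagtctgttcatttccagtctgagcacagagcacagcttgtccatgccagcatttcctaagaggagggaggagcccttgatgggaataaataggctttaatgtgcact
The motifs were searched on both strands of windows from 250 bases before to 50 bases after each start site, and 4 of the 6 genes had such a window in the RefSeq table. Serpina3f had a further start site downstream, whose window held the same GAS and C/EBP matches. A GAS element (TTCNNNGAA, the site class of STAT proteins) began 121 bases before the start of Serpina3f, as TTCCTAGAA, and 33 bases before that of Serpina3g, as TTCCCAGAA. The deposited table places the start of Serpina3g further downstream, so that the same match lies 131 bases before it. Serpina3i, which had 0 counts in 5 libraries, also held TTCCCAGAA, 102 bases before its start, and the window of Serpina3n held no match. Of all 32851 windows, 8.3% held a GAS element. Within the aligned part of these windows, Serpina3f and Serpina3g were identical at 169 of 202 bases (83.7%), Serpina3f and Serpina3i at 223 of 268 bases (83.2%), and Serpina3f and Serpina3n at 199 of 280 bases (71.1%).

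An ISRE-type element (GAAA, any 2 bases, GAAA; bound by interferon regulatory factors, 3.44% of all windows), the STAT3-type GAS element TTCCNGGAA (1.15%) and a kB element (GGGA, any base, TTTCC; bound by NF-κB, 0.411%) were not found in the windows of Serpina3f, Serpina3g, Serpina3i or Serpina3n. Serpina3f held the C/EBP element TTGCNNAA (10.8% of all windows), whose factors drive acute-phase genes, 150 and 22 bases before its start on the minus strand, and a TATAAA box (13.6% of all windows) at 186 bases on the minus strand. Serpina3g, Serpina3i and Serpina3n held no match to either. A match is a run of letters and not evidence of binding, and a missing match concerns these windows only.

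The genes whose profile over the 6 libraries was most like that of Serpina3f were sought among 13610 genes with a mean of at least 1 CPM, by the root mean square (RMS) difference between log2 CPM values centred on each gene's mean. The nearest were Gbp4 (RMS difference 0.501 on the log2 scale) and Gbp2 (0.586), which encode guanylate-binding proteins, then Iigp1 (0.78), an immunity-related GTPase, Il12rb1 (0.796), a subunit of the interleukin-12 receptor, and Klra2 (0.812), a lectin-type receptor of the Ly49 group. Gbp4 was counted 1920, 3136 and 795 times in MSR1 KO against 195, 128 and 402 times in MSR1 WT. Gbp2 had 9334, 23814 and 3141 counts against 1525, 1628 and 1710. Both thus had MSR1 KO replicate 2 as their highest library and MSR1 KO replicate 3 as the lowest of the MSR1 KO group, as Serpina3f did. This shared order is a description, because both were picked for their likeness to Serpina3f over these same libraries. Serpina3g came at rank 23 in this list, with an RMS difference of 1.1. At this same difference, Serpina3f came at rank 10315 of 13610 among the genes most like Serpina3g. The profiles were centred but not scaled, so both ranks depend on the wide range of Serpina3f. They therefore cannot show whether Serpina3f and Serpina3g move together.

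Serpina3g had closer neighbours. The nearest were Dnase1l3 (RMS difference 0.143), an endonuclease of macrophages, Gbp9 (0.158), another guanylate-binding protein, Zbp1 (0.188), a sensor of Z-form nucleic acids, and Tgtp1 (0.191) and Tgtp2 (0.194), a near-identical pair of immunity-related GTPases between which reads may have been split. Gbp9 was counted 5718, 8938 and 3954 times in MSR1 KO against 1722, 1585 and 2837 times in MSR1 WT. None of these 10 genes lies on chromosome 12. For the low counts of Serpina3n the same search carries little information, and its result is not given.

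**Figure D3:**
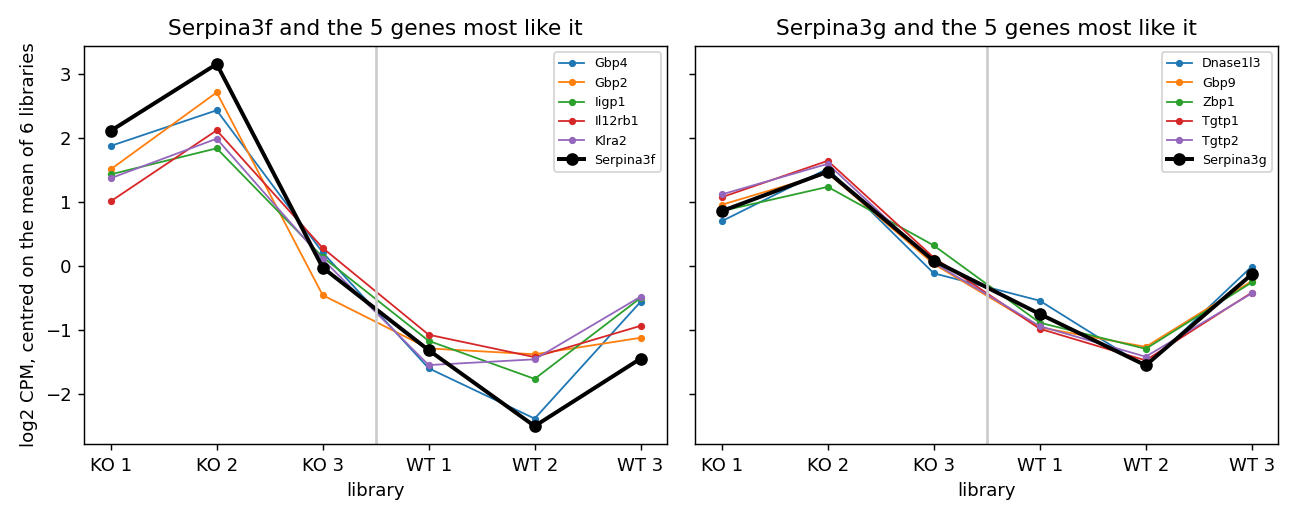
Log2 CPM of Serpina3f (left, black) and Serpina3g (right, black) and of the 5 genes most like each, centred on the mean of the 6 libraries, with the library on the x axis and lines only to guide the eye. Serpina3f spans a wider range than its nearest genes, which differ from it by 0.501 to 0.812 on the log2 scale, whereas the 5 nearest to Serpina3g differ from it by 0.143 to 0.194.

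Of a list of 32 genes of the interferon-γ response, 30 were tested, 21 were higher DEGs and 0 were lower DEGs, against 3.59% and 5.05% of all tested genes. At an adjusted p under 0.05 in edgeR's test, 19 were higher, against 2.25% of all tested genes. Across the list, the log2 fold change had a median of 1.24, against -0.0023 over all tested genes. Its largest members were Gbp4 (log2 fold change 3.13), Gbp2 (3.04), Iigp1 (2.37), Gbp3 (2.16) and Gbp5 (2.14), each with an adjusted p between 0.0225 and 0.0386 from edgeR. Among these log2 fold changes, that of Serpina3f (4.03) would come first and that of Serpina3g (1.64) between the fifth of these genes and the median of the list. The place of Serpina3f is a description only, because the gene was chosen on this value.

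Genes of the IL-6 and STAT3 acute-phase response, which includes Serpina3n in other tissues, were mostly below the DEG definition. Of 33 genes, 23 were tested, 0 were higher DEGs and 2 were lower DEGs, against 3.59% and 5.05% of all tested genes, and the median log2 fold change was 0.12. The lower genes were Osmr, a subunit of the oncostatin M receptor (log2 fold change -0.75, adjusted p = 0.0502 from edgeR), and Il1rn, the interleukin-1 receptor antagonist (-0.59, adjusted p = 0.131 from edgeR). The other members with the largest differences were Il1b (0.59), Pim1 (0.52) and Lcn2 (0.48), with adjusted p-values from 0.0877 to 0.401 in the same edgeR test. Among 14 glucocorticoid-induced genes, all tested, 0 were higher and 2 were lower DEGs, Klf9 (-0.89) and Errfi1 (-0.62), with a median of -0.03.

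Proteases that serpins of this kind can meet were examined next. Of 24 such genes, 16 were tested, 2 were higher DEGs and 1 was a lower DEG, beside background shares of 3.59% and 5.05%, and the median log2 fold change was 0.23. Gzmb, which encodes the cytotoxic protease granzyme B, was counted 892, 1036 and 1578 times in MSR1 KO against 284, 214 and 473 times in MSR1 WT (log2 fold change 1.90, SE 0.31, edgeR adjusted p = 0.0199). Gzma, which encodes granzyme A, stood at a log2 fold change of 1.60 (SE 0.47, edgeR adjusted p = 0.101). Among the cathepsins, Ctsk (log2 fold change -0.85, adjusted p = 0.0272 from edgeR) and Ctsl (-0.52, adjusted p = 0.0306) fell, and Ctsc (0.54, adjusted p = 0.0352), which activates granule proteases, rose.

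Serpins elsewhere in the genome included DEGs in both directions. Of 40 serpin genes outside the Serpina genes of chromosome 12, 22 had a count and 16 were tested, of which 2 were higher and 4 were lower DEGs (background 3.59% and 5.05%), with a median log2 fold change of -0.19. The higher DEGs were Serpinb2 (plasminogen activator inhibitor 2, log2 fold change 0.997, adjusted p = 0.134 from edgeR) and Serpinb9 (an intracellular inhibitor of granzyme B, 0.72, adjusted p = 0.138 from edgeR). Serpinb9 was counted 1020, 1374 and 968 times in MSR1 KO against 564, 692 and 935 times in MSR1 WT. Its groups overlapped once scaled to library size, and it met the DEG definition in 3 of 6 fits with a library left out, not without MSR1 KO replicate 2 (log2 fold change 0.54), MSR1 WT replicate 1 (0.58) or MSR1 WT replicate 2 (0.62).

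Of the lower serpins, Serping1 (the complement C1 inhibitor) was at a log2 fold change of -1.29 (edgeR adjusted p = 0.0182), Serpine2 (a thrombin and plasminogen activator inhibitor) of -0.83 (adjusted p = 0.0199 from edgeR) and Serpinh1 (a collagen chaperone) of -1.06 (adjusted p = 0.057 from edgeR). Serpinb12 was at 0 in each MSR1 KO library and at 21, 20 and 26 counts in MSR1 WT, so it was at least 6.98-fold lower when each 0 was read as 3 counts (adjusted p = 0.0237 from edgeR). With single libraries left out, Serpinb12 had adjusted p-values from edgeR of 0.0526 to 0.108 in the 6 fits. Serping1 lost an adjusted p under 0.05 in 3 of 6 fits and Serpine2 in 4 of 6. Serpinb12, Serping1 and Serpine2 each met the DEG definition in all 6. No test of the difference between Serpina3g and the lower serpins was made.

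**Figure D4:**
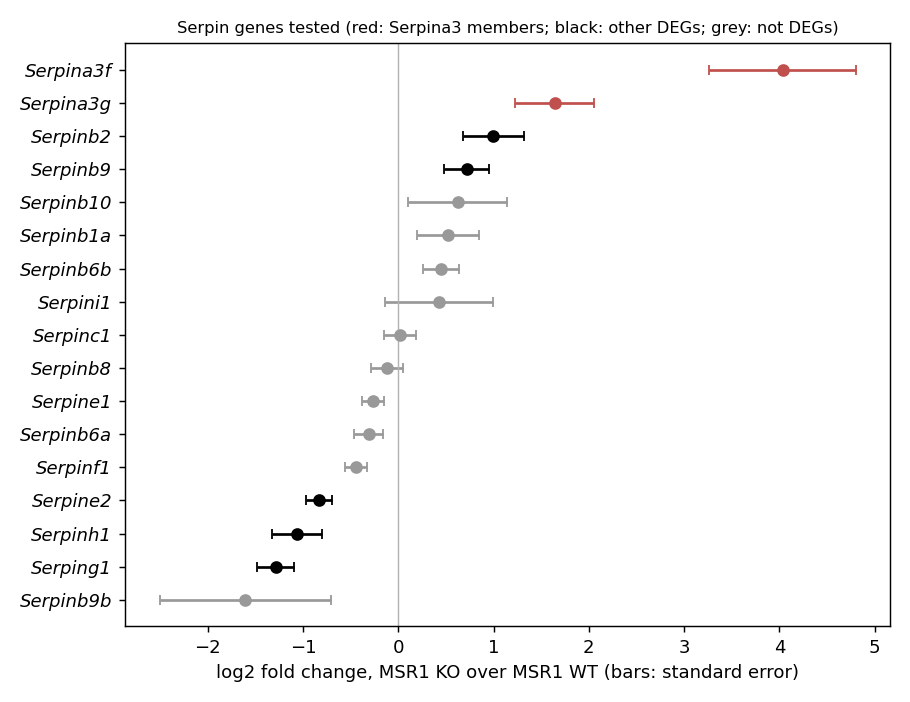
Log2 fold change of MSR1 KO over MSR1 WT with its standard error for 17 of the 18 serpin genes tested; Serpinb12, at 0 counts in all MSR1 KO libraries, is left out because its fold change is only a bound. The Serpina3 genes (red) stand at 4.03 and 1.64, the other DEGs (black) range from -1.29 to 0.997, and the genes that are not DEGs are grey.

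Total counts ranged from 36143518 to 47417448 per library. Msr1 itself ranged from 1825 to 2118 counts in MSR1 KO and from 7543 to 9219 counts in MSR1 WT (log2 fold change -2.02, SE 0.14, edgeR adjusted p = 0.00124), so the gene still had reads in MSR1 KO cultures, and which exons they came from cannot be read from gene counts. All 12 macrophage markers were expressed, with Lyz2, Csf1r and Adgre1 at mean levels above 2000 CPM in both genotypes, and their sum ranged from 31680 to 33260 CPM in MSR1 KO and from 30890 to 32960 CPM in MSR1 WT libraries. Of these markers, all tested, Fcgr1 was the only DEG (log2 fold change 1.14, adjusted p = 0.0182 from edgeR), beside background shares of 3.59% higher and 5.05% lower.

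Markers of other cells were present and differed between the genotypes, and their part in the differences of Serpina3f and Serpina3g was not tested. A list of 12 T and NK cell markers summed to 47.6, 48.4 and 63.4 CPM in MSR1 KO. In MSR1 WT it summed to 15.6, 12.2 and 30.3 CPM, and of 9 tested genes 5 were higher DEGs. Over all tested genes, 3.59% were higher and 5.05% were lower DEGs, which is the background for each list here. Gzmb carried most of the rise in the T and NK sum, and Lck had a log2 fold change of 1.45 and Klrb1c of 1.39. Trac, a T cell receptor gene, was also a higher DEG (log2 fold change 1.115, unadjusted p = 0.0341 from edgeR). It had 27, 24 and 47 counts in MSR1 KO and 13, 15 and 19 in MSR1 WT. Cd3g had counts in every library, and Cd3d and Cd3e were at 0 counts in 3 of 6 libraries. The sum was highest in MSR1 KO replicate 3, the library in which Serpina3f and Serpina3g were lowest within that group. In MSR1 WT the sum had the same order as Serpina3g, with replicate 2 lowest and replicate 3 highest. The 8 mast cell and basophil markers summed to 35.4 to 37.5 CPM in MSR1 KO and 17.2 to 27.01 CPM in MSR1 WT libraries. Of 5 tested, Kit and Hdc were higher DEGs, and Tpsb2 and Mcpt4 were at 0 counts in all libraries. The 10 neutrophil markers, all tested, summed to 664.7 to 1082 CPM in MSR1 KO and 431.1 to 819.1 CPM in MSR1 WT libraries, with 2 higher DEGs. The 12 stromal cell markers, all tested, were lower in sum, at 1699 to 2210 CPM against 2380 to 3054 CPM. They held 6 lower DEGs such as Pdgfra (log2 fold change -1.19) and 1 higher DEG, Thy1 (1.31). Of 10 hepatocyte markers, which include Serpina3k, 7 had 0 counts in every library.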

How the data were processed

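The deposited table holds raw counts per gene for 3 MSR1 KO and 3 MSR1 WT libraries, made by the authors, and these counts were used here. It also holds deposited signal columns (the count divided by a size factor), and the authors' log2 fold changes and p-values, none of which was used. The paper names TopHat as the aligner and FPKM values, whereas the submitters' processing notes name fastp 0.17.1, HISAT2 2.1.0, DESeq2 1.18.1 and R 3.4.3. The counting program, strand setting and genome build are not given in the sources used here. Of 52550 gene identifiers, 52403 were found in GENCODE M21 of GRCm38, 49909 of them with identical coordinates. The deposited length column is the span of the gene, so exon lengths came from GENCODE.

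Genes with low counts were removed by filterByExpr, libraries were scaled by TMM, and edgeR's quasi-likelihood test (edgeR 4.0.16, R 4.3.3) was run on the remaining 16402 genes with Benjamini-Hochberg adjustment. Dividing the log2 fold change by the root of its F statistic gave the standard error. On simulated counts for this comparison, edgeR recovered 110 of 200 genes changed 2-fold among 16023 tested, with 9 other calls, so a 2-fold change in a single gene can be missed. Libraries of a genotype differed by more than counting noise. Same-numbered libraries did not deviate together (correlations of -0.026, 0.019 and -0.0048), so the number was not used as a block. The members, gene lists and motifs were chosen with earlier results of these data known. Named genes were the 6 members, Msr1, other Serpina3 genes, serpins that were DEGs, up to 5 tested genes with the largest difference in each list (with abundant macrophage and stromal markers) and the 5 genes most like Serpina3f and Serpina3g; others are marked. Sequences were compared with Biopython 1.88.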

Additional observations from a re-analysis of the deposited data

How the results depend on the processing

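Serpina3g stayed higher in MSR1 KO and met the DEG definition under all 12 alternatives (log2 fold change 1.25 to 2.04), and Serpina3f ranged from 3.19 to 4.53. At an adjusted p under 0.05, the number of paralogues of Serpina3f that were called was 0 in the reported fit, 1 (Serpina3g, adjusted p = 0.0291) with DESeq2's Wald test, and 0 to 1 with single libraries left out, 1 without MSR1 WT replicate 3. When every gene with a count was tested, 2 paralogues were DEGs, since Serpina3h (unadjusted p = 0.048, adjusted p = 0.37 from edgeR) was then a DEG in the opposite direction, lower in MSR1 KO, beside Serpina3g, which was higher.

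Over all genes, the reported fit had 369 higher and 436 lower genes at an adjusted p under 0.05. DESeq2 gave 695 and 795, no filter gave 237 and 288 among 25014 genes, and leaving out a library gave 18 to 407 higher and 53 to 372 lower, both lowest without MSR1 WT replicate 1. With the replicate number as a block there were 59 higher and 78 lower genes, and Serpina3g had an adjusted p of 0.184 from edgeR; the numbers do not pair the libraries, so this is no weaker effect. The counts of DEGs stayed within 1.5 times. Of 94 values of Serpina3g, other serpins and Msr1 under these alternatives, 0 changed sign, 15 lost and 7 gained an adjusted p under 0.05. With 6 to 23 counts in its libraries, Serpina3n is limited by depth.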
